A study of Homo sapiens with 24 samples.

Results

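Transcript levels were compared between A549 cells transfected with a plasmid expressing snaR-A and A549 cells transfected with a plasmid expressing eGFP. The comparison uses 6 of the 24 libraries of the series, 3 replicates of each plasmid, chosen by their titles in the table of estimated counts. A549 is a human lung adenocarcinoma line of epithelial character. RNA was taken 48 h after lipid transfection, depleted of rRNA, enriched for poly(A) and sequenced as stranded libraries. The snaR-A sequence was driven by a U6 promoter, which recruits RNA polymerase III, whereas eGFP was carried by a pcDNA3.1 expression vector for a tagged protein. The backbone of the U6 plasmids is not given in the sources used here. Insert and promoter therefore differ together, possibly with the vector backbone, and cannot be told apart in this contrast. The series also holds A549 cells given a scrambled snaR-A sequence behind the U6 promoter and A549 cells given SF3B2 in the pcDNA3.1 vector, and the same 4 plasmids in HEK293T cells, a human embryonic kidney line. The replicates are described as biological and were processed on the same day. The snaR-A transcript itself was not analysed here.

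snaR-A is a small noncoding RNA made by RNA polymerase III that is bound by the La protein (SSB). Cells recognise foreign or misplaced nucleic acid through sensors such as RIG-I and MDA5 for double-stranded RNA and cGAS for DNA, and the sensors switch on the genes of the type I and type III interferons. Secreted interferon binds receptors on the same and neighbouring cells, and JAK kinases then activate STAT proteins, which with IRF9 bind interferon-stimulated response elements and turn on a large set of antiviral genes. Epithelial cells of the lung respond to both interferon types.

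The 6 libraries held between 222407595 and 259603563 estimated counts each. Gene levels are given in CPM, counts scaled to the library total after TMM normalization, and sums over markers are scaled to the library total alone. Where a gene had a count of 0 its level may be as high as 3 counts, or 0.0116 to 0.0135 CPM, a limit for counting error only. The 12 genes listed as typical of A549 summed to between 15100 and 16500 CPM in the eGFP libraries and to between 15600 and 16500 CPM in the snaR-A libraries. Of 10 blood, endothelial and stromal marker genes, PTPRC and CD3E were at 0 in both groups, and the summed level of the list was 12.9 to 14.2 CPM with eGFP and 15.0 to 17.1 CPM with snaR-A. Alveolar type II markers were low, with 1 of 8 at or above 1 CPM. A549 snaR-A replicate 3 is labelled A549 in its title but HEK293T in another label field, and its level of A549-typical genes was in the A549 range. A549 eGFP replicate 3 stood apart from the other 2 eGFP libraries, at -47 on the first principal component against -6.02 and -3.43, and the counts for the comparison are therefore also given without it. Pairs of replicates differed by 16.6 to 131 times the counting variance per gene, so no library was a copy of another.

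Most interferon response genes were lower with snaR-A than with eGFP. Of 21775 genes tested, 185 (0.85%) passed the threshold of an adjusted p under 0.05 and a log2 fold change (log2FC, with its standard error as SE) above 1 or under -1 in edgeR's quasi-likelihood test, 179 lower (0.822%) and 6 higher with snaR-A. Without the fold limit, 409 genes were lower (1.88%) and 40 were higher (0.184%) at an adjusted p under 0.05. A list of 137 interferon response genes had 133 members in the table and 129 that passed the low-count filter. Of these 129, 97 were lower past the threshold, 114 were lower at an adjusted p under 0.05, and 0 were higher. Their median log2FC was -1.70, a 3.26-fold difference of the group levels, beside a median of 0.00 over all genes tested. In 123 of the 129, every snaR-A library was below every eGFP library, against 1948 of all genes tested (8.95%). The 21626 genes in no interferon list gave 84 past the threshold, 78 lower and 6 higher, and 331 at an adjusted p under 0.05, with a median of 0.00. With the exact test of edgeR, the test of the study, 131 other genes and 98 interferon response genes passed the threshold. The contrast may differ from that of the study. Its overexpression checks set snaR-A beside the scramble plasmid and SF3B2 beside eGFP. Without A549 eGFP replicate 3, 203 genes passed the threshold, and 97 of the interferon response genes were again lower. Without A549 snaR-A replicate 3, the library whose labels conflict, these counts were 182 and 97. The fewest calls were left without snaR-A replicate 2, with 142 genes past the threshold, of which 83 were interferon response genes and 55 other genes, and 234 in place of 449 at an adjusted p under 0.05. Whichever library was left out, 95 of the 114 interferon response genes kept an adjusted p under 0.05, and so did 115 of the 331 other genes.

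**Figure D1:**
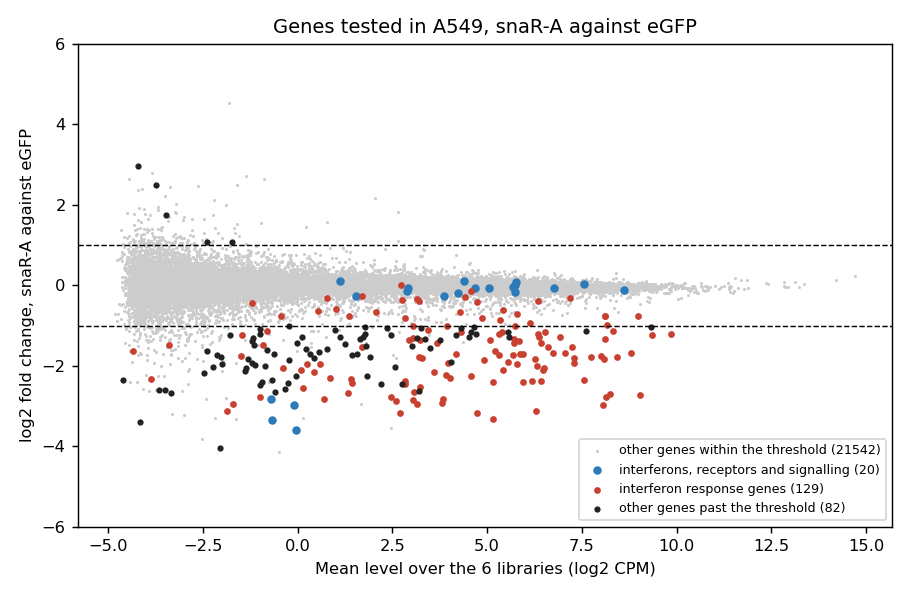
Each point is 1 gene tested in A549, with its mean level over the 6 libraries in log2 CPM on the x axis and its log2FC for snaR-A against eGFP on the y axis, where dashed lines mark 1 and -1. Interferon response genes (red) lie below zero over the whole range of levels, while most genes (grey) lie near 0, and 2 IDs at 0 in all libraries of 1 group fall outside the axis limits of 6 and -6.

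Sensors of foreign nucleic acid were lower with snaR-A in 7 of the 8 members tested, with a median log2FC of -2.26. RIGI, which encodes the RNA sensor RIG-I and lies on the minus strand of chromosome 9 of GRCh38 from 32455302 to 32526208, was at 43.6, 56.7 and 82.9 CPM in the snaR-A libraries and at 317, 335 and 282 CPM in the eGFP libraries. The highest snaR-A library, replicate 3, was well below the lowest eGFP library, also replicate 3. The log2FC of RIGI was -2.36 (SE 0.22, adjusted p = 0.00172 in edgeR's test). IFIH1, which encodes the long-RNA sensor MDA5, was at 14.2, 17.2 and 26.5 CPM with snaR-A and at 105, 109 and 91.6 CPM with eGFP, a log2FC of -2.41 (SE 0.21, adjusted p = 0.00155). TLR3, the endosomal receptor for double-stranded RNA, was at 1.46, 3.01 and 3.74 CPM with snaR-A and at 17.3, 16.7 and 13.0 CPM with eGFP, a log2FC of -2.53 (SE 0.31, adjusted p = 0.00637, and 0.0503 without snaR-A replicate 2). The groups did not overlap for any of these 3 genes. EIF2AK2, the kinase PKR that halts translation when it binds double-stranded RNA, was lower by a smaller step, with a log2FC of -1.23 (SE 0.08, adjusted p = 0.000889). DHX58, ZBP1 and the DNA-binding protein gene IFI16 were also lower, by log2FCs of -2.16, -3.13 and -1.90. CGAS, the sensor of cytosolic DNA, did not pass the test, with a log2FC of -0.14 (SE 0.05, adjusted p = 0.359). AIM2 was at 0 in the snaR-A libraries and was below the filter, and STING1 was not analysed here.

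IFNB1 and 3 interferon lambda genes were lower with snaR-A, while the mRNAs of their receptors and of the resident signalling proteins did not pass the test. Of 23 listed interferons, receptors and signalling genes, 20 were tested and 4 were lower past the threshold, all 4 of them ligands, and the list's median log2FC was -0.09. The fifth ligand tested, IFNE, an interferon of mucosal epithelia, was at 2.12 to 2.36 CPM with snaR-A and at 1.97 to 2.16 CPM with eGFP, and did not pass (log2FC 0.10, SE 0.10, adjusted p = 0.798). IFNB1, the main type I interferon of cells outside the immune system, was at 0.124, 0.124 and 0.0765 CPM with snaR-A and at 1.11, 1.30 and 0.925 CPM with eGFP. These levels are low in both groups, and the groups are far apart relative to their spread. The log2FC of IFNB1 was -3.36 (SE 0.23, adjusted p = 0.000889 in edgeR's test). The type III gene IFNL1 was at 0.169, 0.128 and 0.149 CPM with snaR-A and at 1.09, 0.900 and 1.17 CPM with eGFP, a log2FC of -2.83 (SE 0.17, adjusted p = 0.000889). IFNL2 and IFNL3, near-identical copies of each other, had log2FCs of -3.59 and -2.98. Since 56.4% and 54.8% of the 31-base words in their annotated transcripts also occur in another gene, the split of reads between them is uncertain. IFNL4, which is in no list and was picked after its values were seen, had 3, 1 and 2 counts with snaR-A and 25, 24 and 14 counts with eGFP. Its adjusted p was 0.0134, and the call was lost without any 1 library other than eGFP replicate 3, with an adjusted p of up to 0.0849.

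The receptor chains of these ligands differed by small amounts that did not pass the test. IFNAR1 was at 53.1, 52.3 and 46.3 CPM with snaR-A and at 54.5, 53.6 and 46.8 CPM with eGFP, a log2FC of -0.04 (SE 0.08, adjusted p = 0.925). In both groups replicate 3 was the lowest library. IFNAR2 had a log2FC of -0.06 (SE 0.06), IL10RB of -0.06 (SE 0.05) and IFNLR1 of -0.27 (SE 0.11), with adjusted p of 0.819, 0.751 and 0.460. For the receptor-bound kinases JAK1 and TYK2 the log2FCs were -0.11 and 0.10 (SEs of 0.05 and 0.08). IRF3, the transcription factor that the sensors activate, had 0.01, and MAVS, the mitochondrial adaptor of RIG-I and MDA5, had 0.03 (SEs of 0.05 and 0.04).

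All 5 tested transcripts of the STAT and IRF transducers, which are themselves interferon-induced, were lower at an adjusted p under 0.05. STAT2 was at 53.7, 59.2 and 75.4 CPM with snaR-A and at 218, 216 and 166 CPM with eGFP, a log2FC of -1.68 (SE 0.15, adjusted p = 0.00155). No snaR-A library of STAT2 reached the lowest eGFP library, replicate 3. IRF1 had a log2FC of -1.16 (SE 0.08, adjusted p = 0.000931). IRF9 was not analysed here, and the ID of IRF7 had at most 0.0212 CPM in the 6 libraries and was below the filter. Whether reads of IRF7 were counted under another ID was not tested.

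The IFIT and IFITM families, whose proteins bind foreign RNA and block virus entry at membranes, held the largest list median, -2.71 over 7 members, and all 7 were lower past the threshold. IFIT1, on the plus strand of chromosome 10 from 89392546 to 89406487, was at 94.7, 121 and 193 CPM with snaR-A and at 930, 974 and 764 CPM with eGFP. Replicate 3 was the highest of the snaR-A libraries and the lowest of the eGFP libraries, and the groups were still far apart. IFIT1 was 6.57-fold lower with snaR-A (log2FC -2.71, SE 0.25, adjusted p = 0.00177). IFIT2 was at 39.2, 63.9 and 75.0 CPM with snaR-A and at 480, 511 and 406 CPM with eGFP, 7.88-fold lower, and IFIT3 was 6.90-fold lower. IFITM1 was at 1.38, 1.56 and 3.14 CPM with snaR-A and at 17.5, 17.3 and 11.5 CPM with eGFP, a log2FC of -2.94 (SE 0.33, adjusted p = 0.00382). The last gene overlaps other genes in sequence, with 37.8% of its 31-base words found elsewhere.

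The order of replicates seen for IFIT1 was common in the list. Among the 114 interferon response genes lower at an adjusted p under 0.05, snaR-A replicate 3 was the highest snaR-A library in 107 and eGFP replicate 3 the lowest eGFP library in 101. The share of all genes tested with this order is not given here, so the order is not read as particular to the list. The mean level over the 129 genes was 2.83, 2.97 and 3.32 log2 CPM in the snaR-A libraries and 4.79, 4.78 and 4.56 log2 CPM in the eGFP libraries.

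The oligoadenylate synthetases, which make the 2-5A messenger of the antiviral response, were lower with snaR-A in all 4 members tested. OAS1 was at 131, 134 and 191 CPM with snaR-A and at 567, 574 and 434 CPM with eGFP (log2FC -1.79, SE 0.17, adjusted p = 0.00184). OAS2 was at 10.7, 13.2 and 23.4 CPM with snaR-A and at 149, 149 and 115 CPM with eGFP (log2FC -3.13, SE 0.29, adjusted p = 0.00172). The snaR-A libraries of OAS2 differ by more than those of OAS1 relative to their level. OASL, a catalytically inactive relative that assists RIG-I, had a log2FC of -2.39 (SE 0.22, adjusted p = 0.00177).

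Among 77 other antiviral effectors and interferon-induced genes tested, 70 were lower at an adjusted p under 0.05 and 60 past the threshold, with a median log2FC of -1.67. MX1, a dynamin-like GTPase that traps viral nucleocapsids, lies on the plus strand of chromosome 21 from 41420020 to 41470071. It was at 54.8, 64.0 and 119 CPM with snaR-A and at 539, 546 and 460 CPM with eGFP, 6.54-fold lower (log2FC -2.71, SE 0.28, adjusted p = 0.00281). XAF1, a pro-apoptotic partner of the inhibitor XIAP, had the most negative log2FC of all 129 genes, at 4.27, 5.69 and 9.18 CPM with snaR-A against 69.6, 67.4 and 54.2 CPM with eGFP. The log2FC of XAF1 was -3.33 (SE 0.27, adjusted p = 0.00112), and its groups lay further apart than the spread within either. RSAD2, which encodes viperin and makes a chain-terminating nucleotide, was 7.56-fold lower, IFI44L 6.28-fold and IFI6, an inhibitor of flavivirus replication, 5.22-fold. Within this list MX2, CMPK2 and RTP4 followed XAF1 in size, with log2FCs of -3.17, -3.16 and -2.95. At the other end, the editing enzyme ADAR and the zinc finger antiviral protein ZC3HAV1 were lower within the fold limit, with log2FCs of -0.77 and -0.75, and the tryptophanyl-tRNA synthetase WARS1 had -0.32. ADAR lost the call without snaR-A replicate 1 or 2, and WARS1 without either of these or eGFP replicate 1, with adjusted p of up to 0.0532 and 0.0711. IFI27 rested on eGFP replicates 1 and 2, which were at 19.1 and 18.2 CPM where replicate 3 was at 5.62 CPM. Its log2FC was -2.84 (adjusted p = 0.0191), and the call was lost without any 1 library other than eGFP replicate 3, with an adjusted p of up to 0.129. The 7 effectors that did not pass the test were APOBEC3G, GBP2, TRIM26, IFI30, STARD5, UNC93B1 and MVB12A, with log2FCs between -0.76 and 0.00.

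ISG15 is a ubiquitin-like protein that an interferon-induced enzyme cascade attaches to other proteins, and all 8 genes tested for this system were lower past the threshold, with a median of -1.99. ISG15, on the plus strand of chromosome 1 from 1001138 to 1014540, was at 5.95, 6.78 and 11.5 CPM with snaR-A and at 45.9, 42.6 and 26.9 CPM with eGFP. Its groups did not overlap, although eGFP replicate 3 lay well below the other 2. The log2FC of ISG15 was -2.26 (SE 0.29, adjusted p = 0.00716), and the adjusted p was 0.0597 without snaR-A replicate 2. USP18, the protease that removes ISG15 and dampens receptor signalling, was at 12.84, 14.05 and 21.10 CPM with snaR-A and at 72.6, 74.6 and 56.3 CPM with eGFP, 4.27-fold lower (adjusted p = 0.00184).

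Genes of antigen presentation by MHC class I had a smaller median, a difference between lists that was not tested. Of 15 tested, 9 were lower at an adjusted p under 0.05 and 4 past the threshold, with a median log2FC of -0.97. TAP1, a subunit of the peptide transporter, was at 26.7, 27.7 and 33.8 CPM with snaR-A and at 79.4, 80.1 and 61.0 CPM with eGFP, a log2FC of -1.33 (SE 0.13, adjusted p = 0.00194). PSMB9, an immunoproteasome subunit, had -1.95 (SE 0.15, adjusted p = 0.00111), and the class I transactivator NLRC5 had -1.94. B2M, the invariant light chain of class I molecules, was at 178, 191 and 200 CPM with snaR-A and at 380, 396 and 337 CPM with eGFP. Its log2FC of -0.97 (SE 0.07, adjusted p = 0.000889) fell just within the fold limit. HLA-B, HLA-C and HLA-F did not pass the test, and the ID of HLA-B was counted at no more than 0.0786 CPM, so that its log2FC of -1.64 (SE 0.71, adjusted p = 0.478) is poorly measured. HLA-C was at no more than 0.726 CPM, TAPBP at no more than 0.566 CPM and HLA-F at no more than 0.134 CPM, and TAP2 was at 0 in the 6 libraries. Whether reads of these genes were counted under other IDs was not tested, so the low counts are not read as low expression. The list's median includes HLA-B, HLA-C, HLA-F and TAPBP. TAPBP, PSMB8 and PSMB10 did not pass either, and PSME1 and PSME2 were not analysed here.

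A group of 3 chemokines that draw T cells and NK cells were lower past the threshold, out of 4 tested. CXCL10 was at 0.322, 0.240 and 0.382 CPM with snaR-A and at 2.27, 2.16 and 1.05 CPM with eGFP (log2FC -2.55, SE 0.32, adjusted p = 0.00691). CXCL11 had a log2FC of -2.04 (adjusted p = 0.00662) and CCL5 of -1.35 (adjusted p = 0.00621). Each of the 3 lost the call when 1 library was left out. The adjusted p was 0.0575 for CXCL10 without snaR-A replicate 1. Without snaR-A replicate 2 it was 0.0505 for CXCL11 and 0.0545 for CCL5, and CXCL10 lost the call there too. CXCL9, at no more than 0.0337 CPM with snaR-A, had -2.34 (SE 0.55, adjusted p = 0.111).

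**Figure D2:**
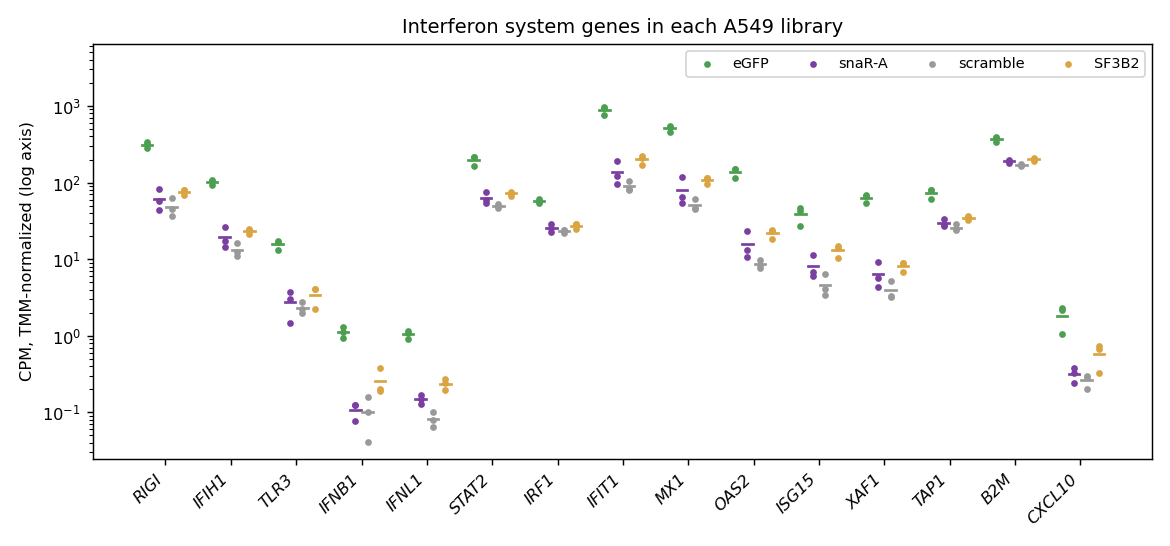
The y axis gives TMM-normalized CPM on a log axis for 15 interferon system genes in the 12 A549 libraries, with 1 point per library and a bar at the mean of each plasmid. For every gene shown the 3 eGFP points lie above the 3 snaR-A points, and most of the scramble and SF3B2 points, which were not tested here, lie nearer to the snaR-A points. For IFNB1 the highest SF3B2 library was at 0.379 CPM, between the highest snaR-A library at 0.124 CPM and the lowest eGFP library at 0.925 CPM.

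The levels in the other plasmids of the same line give a context for these differences. In the scramble libraries, IFIT1 was at 105, 81.4 and 80.3 CPM and MX1 at 60.2, 46.1 and 44.7 CPM, near the snaR-A libraries. Scramble replicate 3, the last value of each, also held 7470 CPM of SF3B2 against 317 and 288 CPM in the other scramble libraries. The SF3B2 libraries, whose vector is that of eGFP, had 208, 225 and 168 CPM of IFIT1 and 115, 115 and 95.4 CPM of MX1. The mean of the scramble libraries was nearer to that of snaR-A than to that of eGFP on the log2 scale in 125 of the 129 interferon response genes, and so was the mean of the SF3B2 libraries in 125. Of the other 84 genes past the threshold, the scramble mean was nearer to that of snaR-A in 79. The same shares over all genes tested are not given here, and the 84 genes were picked for a difference between snaR-A and eGFP. These values are descriptions of libraries that share no test with the comparison.

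Promoters were searched for the core of the interferon-stimulated response element, taken as the word GAAA followed after any 2 bases by GAAA, or the same on the other strand, where it reads TTTC, 2 bases, TTTC. The windows ran from 250 bases before to 50 bases after each RefSeq start on GRCh38.p14, and overlapping matches were counted. Of the 129 interferon response genes tested, 95 had a window in the table, and 61 of them (64.2%) held the word in at least 1 window. Of the other genes lower past the threshold, 34 of 78 had a window and 10 (29.4%) held it. Among the other genes lower within the fold limit, 17 of 149 held it (11.4%), and among those higher at an adjusted p under 0.05, 1 of 24 (4.17%). The share was 4.01% over the 13109 matched genes tested and 4.38% over all 27305 genes of the table. Of the 11 matched interferon response genes that were not called, 7 held the word as well.

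The 250 bases before the start are printed for 3 interferon response genes described above, for the ligand IFNL1, and for TRIM34, a gene in no interferon list, with each match in capitals. IFIT1 is at chr10:89392373-89392622, ISG15 at chr1:1013247-1013496, MX1 at chr21:41431800-41432049, IFNL1 at chr19:39296157-39296406 and TRIM34 at chr11:5624751-5625000, all on the plus strand.
IFIT1: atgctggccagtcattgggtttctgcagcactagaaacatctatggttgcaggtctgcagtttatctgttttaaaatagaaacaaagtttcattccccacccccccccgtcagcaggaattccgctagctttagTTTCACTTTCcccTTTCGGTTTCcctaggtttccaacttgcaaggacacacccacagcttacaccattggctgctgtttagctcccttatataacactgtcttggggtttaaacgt
ISG15: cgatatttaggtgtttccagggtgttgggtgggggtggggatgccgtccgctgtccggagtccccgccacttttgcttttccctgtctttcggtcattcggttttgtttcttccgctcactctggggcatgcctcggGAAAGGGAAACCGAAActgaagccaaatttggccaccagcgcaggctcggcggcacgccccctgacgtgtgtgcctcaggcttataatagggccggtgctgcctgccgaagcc
MX1: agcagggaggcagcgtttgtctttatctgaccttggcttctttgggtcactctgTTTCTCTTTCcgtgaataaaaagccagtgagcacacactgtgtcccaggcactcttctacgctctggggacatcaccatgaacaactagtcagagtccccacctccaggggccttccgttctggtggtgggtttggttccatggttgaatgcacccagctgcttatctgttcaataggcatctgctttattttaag
IFNL1: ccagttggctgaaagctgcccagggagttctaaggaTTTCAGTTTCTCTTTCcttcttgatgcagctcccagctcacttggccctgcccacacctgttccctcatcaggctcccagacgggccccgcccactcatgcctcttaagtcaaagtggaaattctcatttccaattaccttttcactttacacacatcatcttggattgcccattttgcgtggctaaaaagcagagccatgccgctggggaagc
TRIM34: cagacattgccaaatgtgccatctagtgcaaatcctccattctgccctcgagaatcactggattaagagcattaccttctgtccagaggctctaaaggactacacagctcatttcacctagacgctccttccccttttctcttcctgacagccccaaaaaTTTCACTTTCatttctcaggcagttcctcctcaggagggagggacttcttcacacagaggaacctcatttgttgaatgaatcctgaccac
The matches begin 116 and 103 bases before the start in IFIT1, 113 and 107 in ISG15, 196 in MX1, 214 and 208 in IFNL1 and 90 in TRIM34. In ISG15 and IFNL1 the 2 matches overlap and share a GAAA or TTTC word. For MX1, which has several RefSeq starts, the window with a match before the start is shown. The last 2 promoters were chosen after the values of their genes were seen.

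Outside the interferon lists, the lower genes with a symbol and a mean of at least 1 log2 CPM numbered 19 past the threshold. The lists may be incomplete, so genes outside them may include interferon-induced genes and are not shown to be a separate response. The largest difference was that of PLEKHA4, an adaptor protein that binds membrane phosphoinositides, at 1.82, 1.78 and 2.51 CPM with snaR-A and at 12.2, 11.6 and 9.60 CPM with eGFP. It was 5.49-fold lower (log2FC -2.46, SE 0.16, adjusted p = 0.000889), with tight replicates in both groups. THEMIS2, a signalling scaffold of lymphoid and myeloid cells, was at 0.962, 1.23 and 2.03 CPM with snaR-A and at 8.14, 8.25 and 6.41 CPM with eGFP, a log2FC of -2.44 (SE 0.27, adjusted p = 0.00343). PPM1K, the mitochondrial phosphatase that activates branched-chain amino acid breakdown, was at 5.10, 5.22 and 6.71 CPM with snaR-A and at 18.1, 19.1 and 12.9 CPM with eGFP, 2.96-fold lower (adjusted p = 0.00323). The cell adhesion molecule gene CEACAM1 was at 3.79, 3.74 and 5.05 CPM with snaR-A and at 11.95, 11.00 and 12.70 CPM with eGFP, 2.85-fold lower (adjusted p = 0.00131). In each of these 4 genes the groups did not overlap, and in all but PPM1K they were separated by more than their spread in CPM.

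The rest of the 10 largest were CFB, complement factor B, with a log2FC of -1.51, the phospholipase gene PLAAT4 with -1.45, TYMP, thymidine phosphorylase, with -1.34, ODF3B with -1.34, the Ras activator RASGRP3 with -1.31, and RGS22 with -1.29. The call was lost for CFB without eGFP replicate 1 or snaR-A replicate 2, for ODF3B without eGFP replicate 2 or snaR-A replicate 1 or 2, and for RASGRP3 without snaR-A replicate 2, with adjusted p of up to 0.0984, 0.0748 and 0.0543. TYMP and ODF3B are neighbours whose spans overlap on the minus strand of chromosome 22, and 16.6% and 11.2% of their 31-base words occur in another gene. The other 9 of the 19, named after their values were seen, were TRIM34, TRIM38, TRIM69, CD68, MYD88, ZNFX1, PIK3AP1, IL22RA1 and RNF213, with log2FCs between -1.29 and -1.03. CD68 lost the call without eGFP replicate 1 or 2 or snaR-A replicate 1 or 2, with an adjusted p of up to 0.159. TRIM38, a ubiquitin ligase that tunes sensor signalling, was at 24.9, 26.3 and 30.5 CPM with snaR-A and at 68.0, 69.7 and 60.9 CPM with eGFP (log2FC -1.29, SE 0.08, adjusted p = 0.000889). MYD88, the adaptor of most Toll-like receptors, was at 25.5, 28.1 and 32.2 CPM with snaR-A and at 63.3, 64.0 and 63.6 CPM with eGFP (log2FC -1.16, SE 0.08, adjusted p = 0.000889). The 3 eGFP libraries of MYD88 were nearly equal. RNF213, a giant ubiquitin ligase, was at 389, 396 and 474 CPM with snaR-A and at 899, 877 and 785 CPM with eGFP, and ZNFX1, an RNA helicase, was 2.18-fold lower. For TRIM34, 87.3% of the 31-base words occur in another gene, so its value may hold reads of that gene.

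Of the 84 other genes past the threshold, 49 had a mean under 1 log2 CPM and 29 had no symbol. Among the 78 lower ones, 56 had a position in GENCODE 44 and 8 of these (14.3%) lay within 10 kb of an interferon-list gene that was lower at an adjusted p under 0.05, beside 0.504% of all other genes tested. They were low-level transcripts, and 5 of them overlapped the neighbouring gene. They included BISPR, which lies 56 bp from BST2 on the opposite strand (log2FC -2.39), LINC02574 within the span of IFI6 (-2.14), and the pseudogenes HMGB1P3 and RN7SL834P within SP100 (-1.98 and -2.05). BISPR lost the call without snaR-A replicate 2 (adjusted p 0.0744), and HMGB1P3 without eGFP replicate 1 or any 1 snaR-A replicate (up to 0.224). Reads of these pseudogenes and of the genes around them on the same strand may not be separable. The ID ENSG00000235715, which has no symbol or position, was at 0 in the 3 snaR-A libraries and at 1297 to 2368 counts in the eGFP libraries, at least 570-fold lower against the limit of 3 counts per library. It had 1236, 0 and 0 counts in the scramble libraries and 0, 1607 and 350 in the SF3B2 libraries, so it varied as widely within those plasmids.

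Genes of the NF-κB pathway and of inflammation were the next list in which many members were lower. Of 34 tested, 13 were lower and 0 were higher at an adjusted p under 0.05, 1 of them past the fold limit, and the median log2FC was -0.31. IL6, a cytokine of the acute phase response, was at 7.55, 7.84 and 7.68 CPM with snaR-A and at 14.6, 13.7 and 13.1 CPM with eGFP (log2FC -0.85, SE 0.06, adjusted p = 0.000889). Both groups were tight for IL6, and they did not overlap. ICAM1, an adhesion receptor for leukocytes, had -0.70 (SE 0.11, adjusted p = 0.0185), and the call was lost without eGFP replicate 1 or any 1 snaR-A replicate, with an adjusted p of up to 0.124. The neutrophil chemokine gene CXCL8 was lower by a log2FC of -0.66 (adjusted p = 0.0079, and up to 0.0615 without snaR-A replicate 1 or 2), CXCL1 by -0.62, SOD2, the mitochondrial superoxide dismutase, by -0.66, and PTGS2, the inducible cyclooxygenase, by -0.57. For SOD2 the snaR-A libraries ranged from 261.4 to 278.7 CPM and the eGFP libraries from 397 to 469 CPM. CFB, also in this list, is the member past the fold limit.

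**Figure D3:**
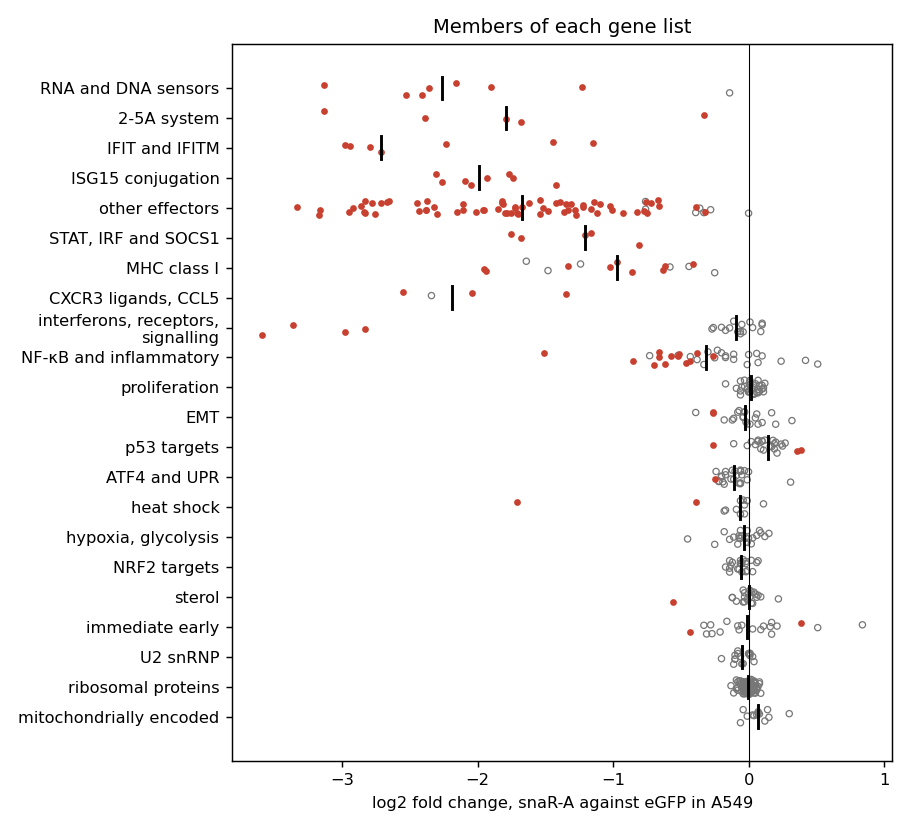
The x axis gives the log2FC for snaR-A against eGFP in A549, with 1 point per gene tested in each of 22 lists, filled red at an adjusted p under 0.05, and a black bar at the list's median. The first 8 lists, all of interferon response genes, have medians between -2.71 and -0.97, the 4 ligands that passed, IFNB1, IFNL1, IFNL2 and IFNL3, stand apart from the rest of their list, and the last 13 lists have medians between -0.31 and 0.14.

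In the other pathway lists few members passed the test, and the counts are to be read beside the 1.88% of all genes lower and 0.184% higher. At an unadjusted p under 0.05 in the same test were 2317 of the 21775 genes. Of 34 cell cycle and replication genes, 0 passed in edgeR's test, with 2 at an unadjusted p under 0.05 and a median log2FC of 0.02. Of 22 epithelial and mesenchymal genes, the junction genes CDH1 and CLDN1 were lower, each by a log2FC of -0.26. Both lost the call without any 1 library other than eGFP replicate 3, with adjusted p of up to 0.0854 and 0.153. Among 24 p53 targets, ZMAT3 and BTG2 were higher and GDF15 lower, and the list's median was 0.14. ZMAT3, an RNA-binding protein gene, was at 49.0, 49.8 and 46.8 CPM with snaR-A and at 37.4, 36.1 and 39.0 CPM with eGFP (log2FC 0.36, SE 0.05, adjusted p = 0.00662). BTG2, an antiproliferative gene, was at 25.03, 29.71 and 27.48 CPM with snaR-A and at 21.1, 20.9 and 20.4 CPM with eGFP (log2FC 0.39, SE 0.06, adjusted p = 0.0253). In both genes the snaR-A libraries lay above the eGFP libraries. ZMAT3 lost the call without snaR-A replicate 1 or 2 (adjusted p up to 0.0524), BTG2 without eGFP replicate 1 or 2 or snaR-A replicate 2 or 3 (up to 0.107), and GDF15 without any 1 library other than eGFP replicate 3 (up to 0.153). GDF15 also lost it with library size alone as the scaling.

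HSPA5, the chaperone of the endoplasmic reticulum, was the one gene of 26 in the ATF4 and unfolded protein response list that passed, with a log2FC of -0.25 (SE 0.04, adjusted p = 0.0278). Of the 26, 25 were below 0, beside 10763 of all 21775 genes tested, and the list's median was -0.10. The exception, DDIT3, had the largest change of the list, 0.31, and did not pass. Among 12 heat shock genes tested, HSPA6 and DNAJA1 were lower. HSPA6, an inducible chaperone, was at 0.506, 0.570 and 0.658 CPM with snaR-A and at 1.94, 1.88 and 1.81 CPM with eGFP, 3.27-fold lower (adjusted p = 0.000965). It was at 7.38, 7.17 and 7.66 CPM in the SF3B2 libraries, above both groups, and 57.1% of its 31-base words occur in another gene. STARD4, a sterol carrier, was the one of 22 sterol genes that passed (log2FC -0.56, adjusted p = 0.0278). Among 20 immediate early genes, EGR1 was higher and KLF6 lower. EGR1, a growth factor-induced transcription factor, was at 89.5, 86.5 and 89.8 CPM with snaR-A and at 69.7, 65.2 and 67.6 CPM with eGFP (log2FC 0.39, SE 0.04, adjusted p = 0.00282). HSPA5, STARD4 and KLF6 each lost the call without any 1 library other than eGFP replicate 3, with adjusted p of up to 0.206, 0.153 and 0.186, and also with library size alone as the scaling. HSPA5 lost it with no low-count filter as well. Hypoxia and glycolysis genes gave 0 of 22 in edgeR's test, NRF2 targets 0 of 22, ribosomal proteins 0 of 74, mitochondrially encoded mRNAs 0 of 13 and small nucleolar RNA host genes 0 of 15, with 5, 3, 0, 1 and 3 at an unadjusted p under 0.05. By that measure the lists with called members held 14 of 24 p53 targets, 11 of 20 immediate early genes and 10 of 26 ATF4 genes. They also held 5 of 22 epithelial and mesenchymal genes, 3 of 12 heat shock genes and 3 of 22 sterol genes.

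Fewer genes were higher than lower, and those with a symbol and a mean of at least 1 log2 CPM differed by a log2FC of at most 0.73. Of the 40 higher at an adjusted p under 0.05, 6 passed the fold limit, each at or below 0.616 CPM, and so none met the level set for naming by size. They are given here after their values were seen. MOBP was at 0.412, 0.388 and 0.365 CPM with snaR-A and at 0.205, 0.163 and 0.180 CPM with eGFP (log2FC 1.08, adjusted p = 0.0182). NCAM2 and RFLNA had log2FCs of 2.49 and 2.96 at or under 0.142 CPM, and ENSG00000286165 and ENSG00000285650 of 1.07 and 1.76. Each of these 5 lost the call when 1 library was left out. The ID ENSG00000274638, with no symbol or position, had 105 to 160 counts in the snaR-A libraries and 0 in every eGFP, scramble and SF3B2 library of A549, at least 39.8-fold higher than eGFP against the limit of 3 counts per library. Among genes with a symbol and a mean of at least 1 log2 CPM, the largest difference was that of PER1, a component of the circadian clock, at 11.5, 11.6 and 12.6 CPM with snaR-A and at 6.73, 6.25 and 8.47 CPM with eGFP. Its log2FC was 0.73 (SE 0.11, adjusted p = 0.0201), and the call was lost without any 1 library other than eGFP replicate 3, with an adjusted p of up to 0.103. RAB30, a Golgi GTPase, was at 18.7, 20.2 and 20.5 CPM with snaR-A and at 14.68, 13.98 and 14.60 CPM with eGFP (log2FC 0.45, adjusted p = 0.00366). CDKN2C, an inhibitor of the cell cycle kinases CDK4 and CDK6, had a log2FC of 0.41 (adjusted p = 0.00629), and the call was lost without eGFP replicate 2 or snaR-A replicate 1 or 2, with an adjusted p of up to 0.0631.

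**Figure D4:**
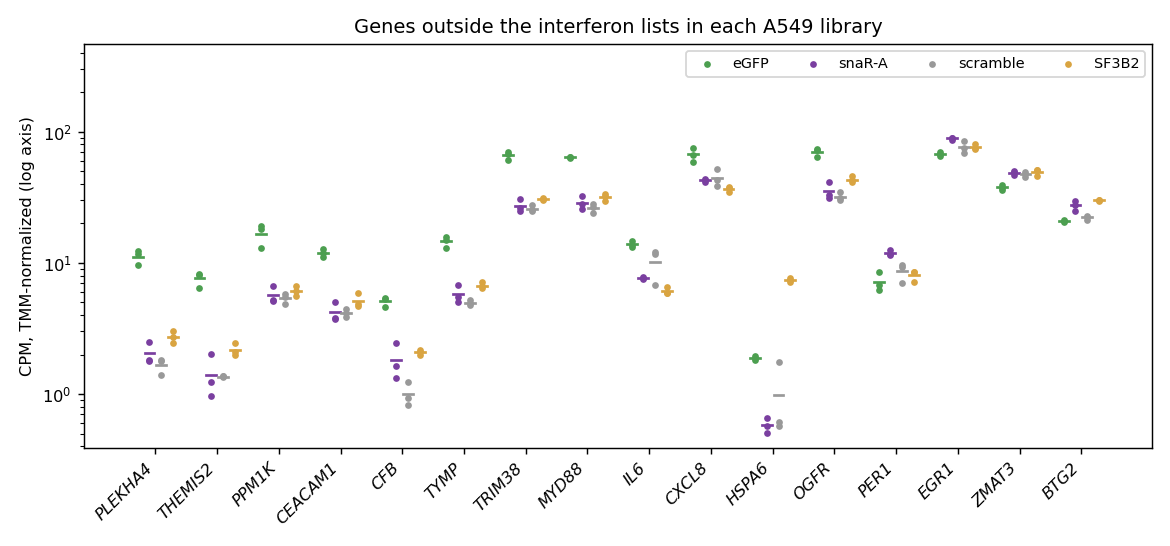
The y axis gives TMM-normalized CPM on a log axis for 16 genes, OGFR being also in an interferon list, in the 12 A549 libraries, with 1 point per library and a bar at the mean of each plasmid. The first 12 genes are lower with snaR-A than with eGFP, by steps of up to 5.49-fold for PLEKHA4. The last 4 are higher, and the smallest of their steps is 1.29-fold, for ZMAT3.

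The mRNAs of SF3B2 and SSB, whose proteins the study found to interact with snaR-A, and of NME1 did not pass the test. The study discusses NME1 as a target described elsewhere, and did not find it significantly affected in its own data. It reports less SF3B2 protein after snaR-A overexpression in HEK293T cells, without a change of SF3B2 mRNA. Protein was not measured in the libraries used here. SF3B2, the U2 snRNP subunit, was at 255.1, 250.7 and 265.8 CPM with snaR-A and at 257, 259 and 309 CPM with eGFP, a log2FC of -0.10 (SE 0.07, adjusted p = 0.725). The groups overlapped, and eGFP replicate 3 was the highest library. NME1, a nucleoside diphosphate kinase, had 0.01 (SE 0.05, adjusted p = 0.958), and SSB had -0.10 (SE 0.05, adjusted p = 0.489). Of 17 U2 snRNP and U2AF genes, 0 passed in edgeR's test and 0 had an unadjusted p under 0.05, with a median log2FC of -0.05. Of 57 genes whose proteins the study lists as bound by snaR-A, PATL1, a factor of mRNA decapping, was lower by a log2FC of -0.20 (adjusted p = 0.0335). PATL1 lost the call without any 1 library other than eGFP replicate 3, with an adjusted p of up to 0.203, and with library size alone or no low-count filter. Among 7 transcripts named by the study for splicing changes, OGFR was lower, at 31.3, 32.7 and 41.3 CPM with snaR-A and at 72.1, 74.3 and 64.6 CPM with eGFP (log2FC -1.01, adjusted p = 0.00309). OGFR is also in the interferon effector list. These are gene totals, and splicing was not analysed here.

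The same contrast in HEK293T cells asks whether the difference is shared by another line. HEK293T eGFP replicate 3 stood apart there. The genes typical of A549 summed to 851 CPM in it, against 51.9 and 56.0 CPM in the other HEK293T eGFP libraries and 59.3 to 66.2 CPM in the HEK293T snaR-A libraries, and its mean level of the 129 interferon response genes was 1.52 log2 CPM against 0.71 and 0.79. HEK293T results are therefore given with and without it. With it, 121 interferon response genes were tested in HEK293T, 10 were lower at an adjusted p under 0.05 (8.25% of all genes were), 12 were higher (6.71% of all genes), and the median log2FC was -0.07. Without it, 10 were lower (7.71% of all genes), 14 were higher (5.66% of all genes), and the median was 0.07.

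The difference between the lines was tested as an interaction over the 12 libraries. At an adjusted p under 0.05, 1616 of 25054 genes (6.45%) differed, 817 of them (3.26%) with the more negative fold change in A549. Of 131 interferon response genes, 84 differed, each with the more negative fold change in A549, and the median of the interaction was -1.36 on the log2 scale. Without HEK293T eGFP replicate 3, these counts were 2111 genes and 100 interferon response genes, 99 of them more negative in A549, and the median was -1.61. IFITM1 had log2FCs of -2.94 in A549 and 0.44 in HEK293T, a difference of -3.40 (SE 0.38, adjusted p = 0.00106). MX1 shows the weight of the library set apart. Its log2FC in HEK293T was -1.96 with all libraries and 0.06 without HEK293T eGFP replicate 3, and its interaction moved from -0.78 (adjusted p = 0.712) to -2.82 (adjusted p = 0.0126). CCL5 and HSPA6 were lower in both lines, with log2FCs in HEK293T of -1.48 and -1.69 and no difference called between the lines (interaction 0.11, adjusted p = 0.826, and -0.03, adjusted p = 0.962). PLEKHA4, from outside the lists, had a log2FC of 0.22 in HEK293T and an interaction of -2.69 (adjusted p = 0.000166).

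**Figure D5:**
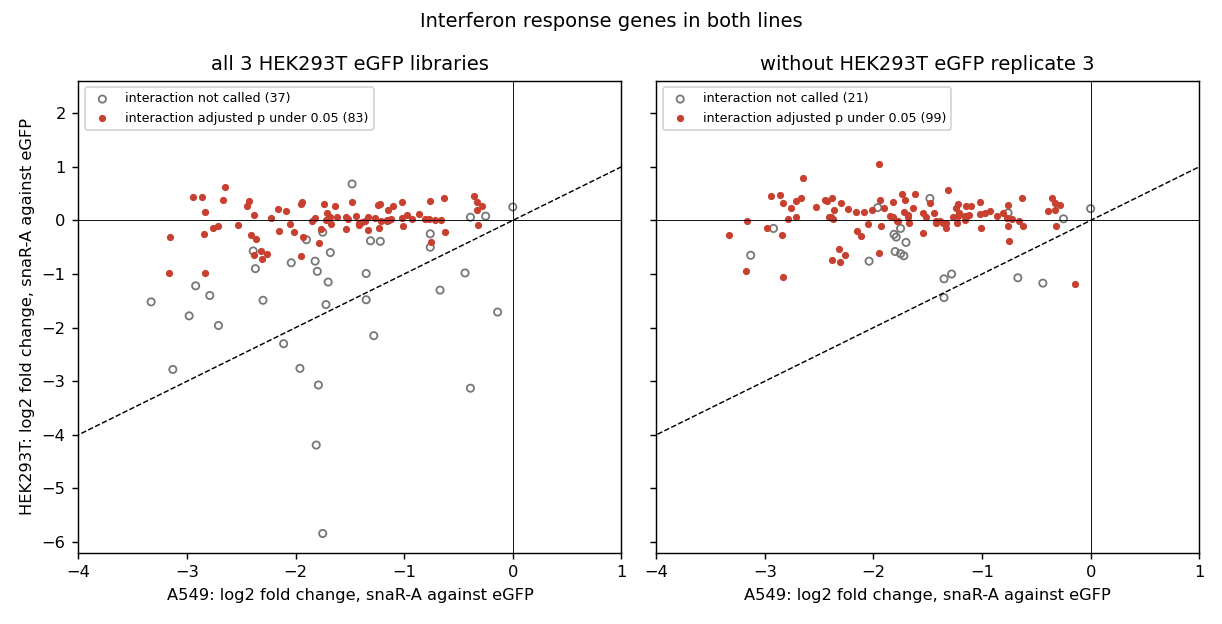
Each point is 1 of 120 interferon response genes, with its log2FC for snaR-A against eGFP in A549 on the x axis and in HEK293T on the y axis, using all HEK293T eGFP libraries (left) or leaving out replicate 3 (right, where 1 gene at 6.50 lies above the axis). Filled points have an interaction at an adjusted p under 0.05, 83 on the left and 99 on the right, and most of them lie near 0 in HEK293T and below 0 in A549.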

How the data were processed

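RNA-seq libraries of A549 cells were used, 3 with snaR-A and 3 with eGFP, with the other A549 and the HEK293T libraries as context. Per the labels and the study's methods, the authors trimmed reads with Trim Galore and quantified them against hg38 transcripts with Salmon. They deposited estimated counts per Ensembl gene for 60236 genes, not normalized between libraries. The transcriptome release and the tool that summed transcripts to genes are not given in the sources used here. Of the values, 51% were not whole (tolerance 1e-06), and all were rounded before testing. Symbols came from an Ensembl table, in which 54903 IDs had a record. The other 5333 held 2.53% of the counts and were kept under their IDs.

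Genes kept by filterByExpr were normalized by TMM and tested with edgeR 4.0.16 (R 4.3.3, limma 3.58.1) with its quasi-likelihood test, and p-values were adjusted by the Benjamini-Hochberg method over all genes tested. The threshold was an adjusted p under 0.05 and a log2 fold change above 1 or under -1. CPM values are TMM-normalized over the 12 libraries of a line, and log2 CPM uses a prior count of 2. The interaction was fitted over 12 libraries. The alternatives were exactTest, the test of the study, DESeq2 1.42.0, other scalings and filters, all 12 A549 libraries in one fit, a replicate block and each library left out. The HEK293T fit without eGFP replicate 3, the search for neighbouring genes and the last 2 promoters printed were chosen after seeing the data. Summaries and plots used Python 3.11.15, pandas 2.3.3, numpy 2.4.6 and matplotlib 3.10.9.

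The comparison, the lists and the genes named were chosen with earlier results of these data known. Genes were named by a rule: a fixed set of interferon genes with SF3B2, NME1 and SSB, the 10 largest changes in each direction outside the interferon lists (genes past the threshold that carry a symbol, average 1 log2 CPM or more and do not overlap between the groups), and up to 3 called members of each other list. No higher gene met it, and some genes it names are not reported here. Genes outside it were chosen after their values were seen. Positions are from GENCODE 44. On simulated data with 200 changed genes, the edgeR steps recovered 198 in the A549 comparison with 20 false calls (21733 genes) and 187 in the interaction with 7 (24419 genes). The planted changes were all larger than the fold limit and were placed only in genes above a minimum mean level. Recovery of smaller changes and of low-level genes was therefore not measured. The simulation gave both cell lines the same mean level per gene and held no library set apart from its group. Residuals of snaR-A and eGFP libraries with the same replicate number correlated by 0.00696, 0.0584 and 0.0687, so the numbers were not taken to pair the libraries. The p-values measure the spread between these replicates.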

Additional observations from a re-analysis of the deposited data

Results flagged for a closer look

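The effect of snaR-A against eGFP differed between A549 and HEK293T in 1616 of 25054 genes, by edgeR's test of the interaction at an adjusted p under 0.05. Among the genes named by the rule, the interaction (A549 minus HEK293T, log2 scale) was -2.63 for IFIT1, -3.40 for IFITM1, -1.65 for ISG15, -2.29 for USP18, -3.29 for IFI44L and -2.52 for IFI6. It was -2.04 for RIGI, -2.16 for IFIH1, -1.41 for TAP1, -2.28 for PSMB9 and -2.59 for CXCL10, which was below the filter in the HEK293T comparison, so that its interaction rests on the A549 libraries. HLA-B had -1.94, with its A549 level at no more than 0.0786 CPM. Outside the interferon lists it was -2.69 for PLEKHA4, -2.68 for THEMIS2, -1.58 for PPM1K, -1.26 for TYMP and -1.45 for RASGRP3. Without HEK293T eGFP replicate 3, which carried 851 CPM of A549-typical genes, the interactions of IFIT1, RIGI and PSMB9 were -3.13, -2.62 and -3.05, and IFIT2, IFIT3 and OASL also passed, with -2.90, -2.86 and -2.53.

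SF3B2 was at 7470 CPM in A549 scramble replicate 3, a library used here only as context, against 317 and 288 CPM in the other scramble libraries and 251 to 309 CPM in the 6 libraries compared. It was 39260 to 41710 CPM in the A549 libraries given the SF3B2 plasmid.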

How the results depend on the processing

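The count of interferon response genes lower past the threshold stayed between 91 and 98 under every setting that kept all 6 libraries, and was 93 without the MHC class I genes. Their median log2 fold change stayed between -1.88 and -1.59 in all fits. With each library left out, the 185 genes past the threshold became 142 to 203, the 449 at an adjusted p under 0.05 became 234 to 597, the 97 interferon response genes became 83 to 97, and the 84 other genes became 55 to 102, the lowest of each without snaR-A replicate 2 and the highest without eGFP replicate 3. Other genes past the threshold rose to 131 with exactTest, and genes at an adjusted p under 0.05 to 876 with DESeq2. The interaction gave 3587 genes with DESeq2, 993 with no low-count filter and 784 to 2129 with each library left out, the fewest without HEK293T snaR-A replicate 1, and exactTest was not run for it. With the replicate block, 153 genes passed the threshold, 303 had an adjusted p under 0.05, and 91 interferon response and 58 other genes passed. The block gave a median of -1.72 and 1249 genes for the interaction, and 11 interferon response and 143 other genes lost their call at an adjusted p under 0.05. Among the genes described above these were ISG15, CXCL10, ADAR, IFI27, IFNL4, ODF3B, RASGRP3, CDH1, CLDN1, BTG2, GDF15, HSPA5, KLF6, PATL1, MOBP, NCAM2, RFLNA, ENSG00000286165 and ENSG00000285650. With all 12 A549 libraries in 1 fit, IFNL4, CLDN1, MOBP, NCAM2, RFLNA and ENSG00000235715 lost it. With library size alone, 4 interferon response and 106 other genes lost their call. Of the 1616 interaction calls, 49.4% were less negative in A549, against 37.3% with RLE scaling, 60.9% with library size alone and 35.0% with DESeq2. Among genes not called, NME1 ranged from -0.02 to 0.04 with each library left out, IFNAR1 from -0.10 to 0.03 and IRF3 from -0.04 to 0.04 (log2 fold changes). The cause of these changes was not tested.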
